A study of Homo sapiens with 8 samples.

Results

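The epithelial keratins described here are 8 genes, KRT7, KRT8, KRT10, KRT18, KRT19, KRT20, KRT23 and KRT80, taken by exact gene symbol from the 25192 symbols of the deposited tables. All 8 were found in every library, and the tables hold 47 other keratin genes. Expression was measured by RNA sequencing in HT29 and SW480 cells, established human colorectal cancer cell lines that the study treats as APC-mutant. Cells of each line were transfected for 36 h with control siRNA (siCon), directed against firefly luciferase, or with siRNA against PRDX2 (siPrdx2), the gene of the cytosolic peroxidase PrxII, with 2 libraries in each of the 4 groups. HT29 cells were grown in McCoy's 5A and SW480 cells in RPMI1840, both with fetal bovine serum, so line and medium cannot be told apart. The study's methods describe the sequencing of HT29 samples only. Whether the lines were sequenced together is not stated, so line may also not be told apart from when it was sequenced. The labels and the study call the libraries duplicate experiments without stating separate transfections, so each p-value measures only the spread between duplicate libraries, which may be technical.

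Keratins are the intermediate filament proteins of epithelial cells, and a filament forms from pairs of a type I and a type II chain. In simple epithelia such as the gut lining the main pair is KRT8 with KRT18, while KRT19 and KRT20 are further type I chains, and KRT20 is widely used as a marker of differentiated intestinal cells and of colorectal cancer. The filaments are anchored to desmosomes by linker proteins such as desmoplakin and give the cell layer mechanical strength.

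KRT7, KRT8 and KRT80 are type II genes and lie with KRT18 in the keratin cluster of chromosome 12. In GRCh37 (hg19) KRT80 occupies chr12:52562780-52585798 on the minus strand, KRT7 chr12:52626304-52645970 on the plus strand, KRT8 chr12:53290971-53343738 on the minus strand and KRT18 chr12:53342655-53346690 on the plus strand. KRT8 and KRT18 overlap at their 5′ sides on opposite strands, and the library kit did not keep strand, so reads from the overlap cannot be assigned by strand. The other type I genes lie on chromosome 17, with KRT10 at 38974369-38978866, KRT20 at 39032141-39041494, KRT23 at 39078952-39093898 and KRT19 at 39679869-39684560, all on the minus strand. KRT10 has an antisense gene, KRT10-AS1, listed in the tables under its older symbol TMEM99 with 139 to 235 expected counts per library against 128 to 310 for KRT10, so KRT10 values carry that uncertainty. The place of KRT7 is overlapped by KRT86 on the same strand, and by KRT7-AS and KRT87P on the other. KRT86 had 55.8 to 152 expected counts in SW480 against 290 to 521 for KRT7, and 3.57 to 8.22 against 43 to 54 in HT29. KRT7 values may carry that uncertainty. Among processed copies, KRT8P41 had at most 46 and KRT18P55 at most 16 expected counts in a library.

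The 250 bases before the RefSeq start of KRT20 (chr17:40885243-40885492, GRCh38.p14, minus strand, 5′ to 3′) are shown because KRT20 differed most between the lines and was the member that rose after PRDX2 siRNA in HT29. Capitals mark matches on either strand to TTTAT, the core that CDX factors bind.

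KRT20: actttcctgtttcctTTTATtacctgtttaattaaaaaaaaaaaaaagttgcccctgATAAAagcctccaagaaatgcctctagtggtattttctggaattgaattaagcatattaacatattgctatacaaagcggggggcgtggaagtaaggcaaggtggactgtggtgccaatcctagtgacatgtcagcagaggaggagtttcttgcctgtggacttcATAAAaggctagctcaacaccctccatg

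The window had a GC content of 41.2% and held 3 such matches, which begin 235, 193 and 28 bases before the start. At least 1 match was present in 32.7% of the 35116 RefSeq promoter windows of the same length. The share of windows with 3 or more was not counted. A CCAAT match, found in 32.0% of windows, began 79 bases before the start, and there was no match to TATAAA (10.7% of windows), GGGCGG (42.6%), GATAAG (5.6%), CTTTGA (11.2%) or TGANTCA (6.6%) on either strand. A match is only a run of letters in this window. Of the 8 keratins, 3 (KRT8, KRT10 and KRT20) were in the RefSeq promoter table. The same window of KRT10, a gene not called after PRDX2 siRNA in either line, held 4 matches to TTTAT. They begin 239, 181, 122 and 28 bases before its start. The last lies inside a TATAAA match that begins 29 bases before the start, and that window also held a CCAAT match. The TTTAT matches are thus not particular to KRT20.

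The libraries held 8857442 to 10164137 expected counts, so 3 counts equal 0.293 to 0.335 CPM (counts scaled by library size, with TMM over all 8 libraries). PRDX2 itself was at 153 and 159 CPM with siCon and 85.3 and 85.9 CPM with siPrdx2 in HT29, and at 202 and 238 against 67.2 and 68.3 CPM in SW480, which fits the labels. All 7 epithelial markers had at least 10 counts in every library, with a summed level of 2214 to 2259 CPM in HT29 and 616 to 724 CPM in SW480. Fibroblast markers summed to 3.80 to 6.36 CPM in HT29 and 21.5 to 30.4 CPM in SW480, leukocyte markers to 12.1 to 31.3 CPM over both lines with PTPRC and MS4A1 at 0 in every library, and endothelial markers to at most 6.06 CPM. The SW480 siCon duplicates stood apart: a chi-square of their counts gave 10.6 per degree of freedom against 1.42 to 2.08 for the other duplicate pairs. Their difference (replicate 1 minus replicate 2) followed transcript GC content across 13470 genes (Spearman's rho -0.74, against -0.21 to -0.14 in the other groups), with siCon replicate 1 farther than replicate 2 from both siPrdx2 libraries (20.5 and 22.3 against 10.1 and 10.3 per degree of freedom). Where leaving out either SW480 control library changed a call or a direction of a keratin, those values stand beside the result. With 1 control left, the siRNA fit in SW480 took its spread from the siPrdx2 duplicates alone. Calls of such a fit do not compare with those of the main fit.

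On the scale that allows genes to be compared, TPM (transcript abundance per length), KRT18 and KRT8 led the 8 keratins in both lines. KRT18, the type I chain of simple epithelia, was at 8110 and 8100 TPM in HT29 siCon and 5459 and 5182 TPM in SW480 siCon. KRT8, its type II partner, was at 6447 and 6559 TPM in HT29 and 3153 and 3981 TPM in SW480. These values did not overlap between the lines, and KRT18 exceeded KRT8 in all 8 libraries.

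KRT19, a keratin without a tail domain that is found in ductal and gut epithelium, was the next of the 8 in both lines. It was at 1250 and 1264 TPM in HT29 siCon and at 1063 and 1343 TPM in SW480 siCon, so the lines overlapped. The fourth place differed. In HT29 it was KRT20 at 559 and 546 TPM, while in SW480 it was KRT23, a type I keratin found in some gut tumours, at 392 and 395 TPM.

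KRT80, a type II keratin linked to desmosomes, followed at 120 and 126 TPM in HT29 and 179 and 185 TPM in SW480. In HT29 the order closed with KRT10 at 13.4 and 16.7 TPM, KRT7 at 7.17 and 7.29 TPM and KRT23 at 7.22 and 6.48 TPM, the last pair overlapping. In SW480 it closed with KRT7 at 44.5 and 73.1 TPM, KRT10 at 30.7 and 27.2 TPM and KRT20 at 0.87 and 0.79 TPM. KRT7 is the type II keratin of many glandular epithelia, and KRT10 is best known from the upper layers of skin.

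**Figure D1:**
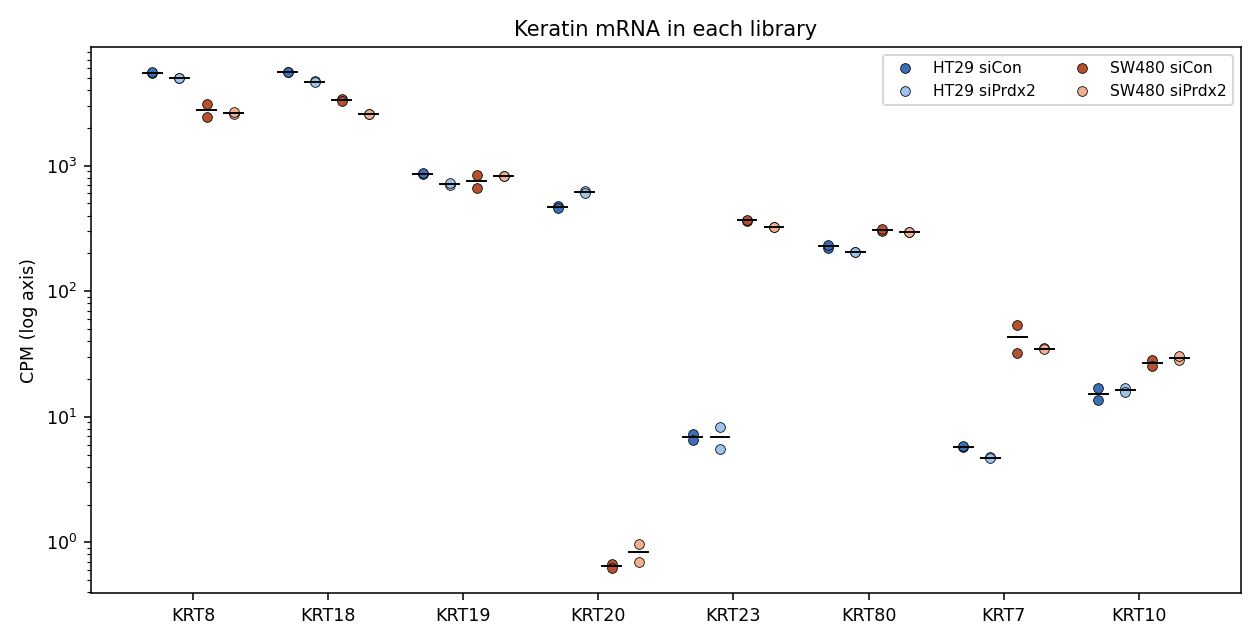
Level of each keratin in each of the 8 libraries, in CPM (TMM over 8 libraries) on a log axis; points are libraries, 2 per group, and black bars are group means. KRT20 sits at 463 to 624 CPM in HT29 and below 1 CPM in SW480, and KRT23 at 5.54 to 8.28 CPM in HT29 and 323 to 368 CPM in SW480.

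With control siRNA, 7 of the 8 keratins differed between the lines, 3 higher and 4 lower in HT29. Most genes did so: edgeR's quasi-likelihood test, adjusted by the Benjamini-Hochberg method over all 14346 genes tested, called 67.5% of them, 31.8% higher and 35.7% lower in HT29, so the share of the keratins is not a result about them. KRT20 was at 474 and 463 CPM in HT29 and at 0.67 and 0.62 CPM in SW480, where each library held 6 expected counts, and it passed the count filter of this comparison through HT29. The fitted level was 714-fold higher in HT29 (log2 9.48, SE 0.18, adjusted p = 9.12e-09, edgeR).

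KRT23 went the other way, at 7.31 and 6.57 CPM in HT29 against 363 and 368 CPM in SW480. It was 52.5-fold lower in HT29 (log2 -5.71, SE 0.13, adjusted p = 2.20e-08, edgeR). KRT20 and KRT23 lie near each other in the chromosome 17 cluster, and their levels were opposite in the 2 lines.

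KRT7 was at 5.72 and 5.81 CPM in HT29 and 32.4 and 53.7 CPM in SW480, a log2 difference of -2.90 (SE 0.27, adjusted p = 2.04e-05, edgeR). All HT29 values lay below the SW480 values, although the SW480 pair was itself wide. The main pair was higher in HT29, KRT8 by 0.99 (SE 0.11) and KRT18 by 0.74 (SE 0.07) on the log2 scale. KRT80 was lower in HT29 by a log2 of -0.44 (SE 0.10) and KRT10 by -0.81 (SE 0.17). The adjusted p of these 4 lay between 2.03e-05 and 0.00351 (edgeR). With 1 HT29 siCon library left out in turn, KRT80 lost its call in both cases and KRT10 without replicate 1. KRT20 was then not tested, since 1 HT29 library cannot meet the filter alone. The share of all genes called in these fits is not given, so the losses are no result about the keratins.

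KRT19 did not pass this test (log2 0.19, SE 0.12, adjusted p = 0.186, edgeR), and its direction rested on the libraries used. Between the siPrdx2 libraries it was lower in HT29 (698 and 722 against 831 and 830 CPM; log2 -0.23, SE 0.03, adjusted p = 4.57e-07, edgeR). Without SW480 siCon replicate 1 it was -0.06, and without replicate 2 it was 0.31 with an adjusted p past the threshold.

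PRDX2 siRNA in HT29 left KRT20 higher and KRT8, KRT18, KRT19 and KRT80 lower, which is 5 of the 8 keratins with an adjusted p under 0.05 by edgeR's quasi-likelihood test. Over all 12961 genes tested 17.6% were called, 7.76% higher and 9.82% lower, with a median log2 fold change of -0.0005 against -0.14 for the 8 keratins. With limma on log2(TPM + 1), 69.6% of the called genes were higher, against 44.1% here. KRT7, KRT10 and KRT23 were not called. Whether groups overlapped is given below for both lines as a description. The share of all genes without overlap was not counted, so non-overlap is no result about the keratins.

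KRT20 rose from 474 and 463 CPM with siCon to 624 and 608 CPM with siPrdx2. Both siPrdx2 libraries lay above both controls, a 1.31-fold rise (log2 0.39, SE 0.03, adjusted p = 1.12e-08, edgeR). The call held in all 13 alternatives run, with the log2 fold change between 0.38 and 0.46.

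KRT18 fell from 5548 and 5539 to 4677 and 4620 CPM, a log2 fold change of -0.26 (SE 0.01, adjusted p = 1.13e-11, edgeR), and was also called in all 13 alternatives (-0.26 to -0.19). Its partner KRT8 went from 5444 and 5538 to 4974 and 5016 CPM, a smaller fall of -0.14 (SE 0.01, adjusted p = 8.33e-08, edgeR), with a range of -0.15 to -0.07 over the alternatives and the smallest value with limma on TPM. KRT19 fell from 857 and 867 to 698 and 722 CPM, by -0.28 (SE 0.02, adjusted p = 1.31e-07, edgeR). In each case both siPrdx2 libraries lay below both controls.

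KRT80 was at 222 and 233 CPM with siCon and 206 and 205 CPM with siPrdx2 (log2 -0.15, SE 0.04, adjusted p = 0.0153, edgeR). Its libraries did not overlap, but the call was lost in 7 of 13 alternatives, among them DESeq2 and limma on TPM. The calls also depended on where the spread was estimated. With all 8 libraries in 1 fit, KRT18 (adjusted p = 0.00632, edgeR) and KRT20 (0.0117) stayed called, while KRT8 (0.542), KRT19 (0.202) and KRT80 (0.378) did not.

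The remaining 3 were low in HT29. KRT7 was at 5.72 and 5.81 CPM with siCon and 4.74 and 4.67 CPM with siPrdx2, which do not overlap, with a log2 fold change of -0.29 (SE 0.20, adjusted p = 0.347, edgeR). KRT10 was at 13.6 and 16.9 against 16.9 and 15.6 CPM (log2 0.09, SE 0.13). KRT23 was at 7.31 and 6.57 against 8.28 and 5.54 CPM (log2 -0.00, SE 0.20), and for both the groups overlapped.

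**Figure D2:**
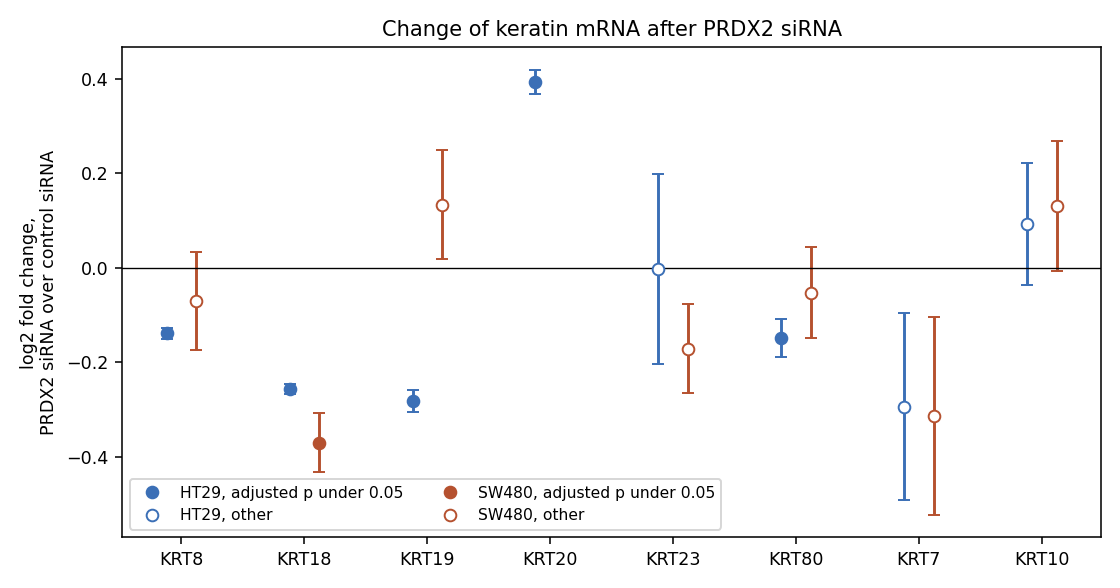
Log2 fold change of each keratin, siPrdx2 over siCon, in HT29 and SW480; bars are standard errors from edgeR, filled points have an adjusted p under 0.05, and KRT20 was not tested in SW480. In HT29 KRT20 is at 0.39 and KRT19 at -0.28, and KRT18 is below 0 in both lines, at -0.26 and -0.37.

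In SW480, 7 of the 8 keratins passed the count filter and 1, KRT18, changed. Over all 14112 genes tested 3.30% were called by edgeR's quasi-likelihood test, 1.22% higher and 2.08% lower, with a median log2 fold change of 0.0022 against -0.07 for the 7 keratins. Of the called genes 36.9% were higher, against 58.9% with limma on log2(TPM + 1). KRT18 fell from 3399 and 3265 CPM with siCon to 2594 and 2562 CPM with siPrdx2, without overlap (log2 -0.37, SE 0.06, adjusted p = 0.0210, edgeR). The fall stayed between -0.55 and -0.28 in the 13 alternatives. Its call was lost with limma on TPM (adjusted p = 0.115 with a pseudocount of 1) and without either siPrdx2 library (adjusted p = 0.607 and 0.722, edgeR), where 1 library is left in that group.

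Of the other 6, KRT7, KRT8 and KRT19 had the widest control pairs. KRT7 was at 32.4 and 53.7 CPM with siCon and 35.1 and 34.4 CPM with siPrdx2, KRT8 at 2429 and 3099 against 2598 and 2669 CPM, and KRT19 at 665 and 849 against 831 and 830 CPM. For each of these 3 the siPrdx2 pair lay between the controls. On the log2 scale siCon replicate 1 differed from replicate 2 by -0.72 for KRT7, -0.35 for KRT8 and -0.35 for KRT19.

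Their transcript GC contents were 62.0% for KRT7, 61.9% for KRT19 and 58.3% for KRT8, against 45.8% for KRT20 and 49.4% for KRT23. KRT18, at 57.8%, differed between the controls by 0.06 only. The part of GC content in the values of single genes was not tested.

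KRT80 was at 302 and 315 against 297 and 298 CPM (log2 -0.05, SE 0.10), KRT23 at 363 and 368 against 326 and 323 CPM (-0.17, SE 0.09) and KRT10 at 28.2 and 25.3 against 28.3 and 30.3 CPM (0.13, SE 0.14). The groups of these 3 did not overlap, for KRT10 by 28.31 against 28.25 CPM only, and none was called by edgeR. With limma on TPM the log2 fold changes of KRT80 (0.04) and KRT8 (0.03) were above 0. They lay below limma's median over all genes tested in SW480, 0.0849 with a pseudocount of 1 and 0.0929 with 0.1. KRT20 was at 6 and 6 expected counts with siCon and 7 and 10 with siPrdx2, too few to test.

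**Figure D3:**
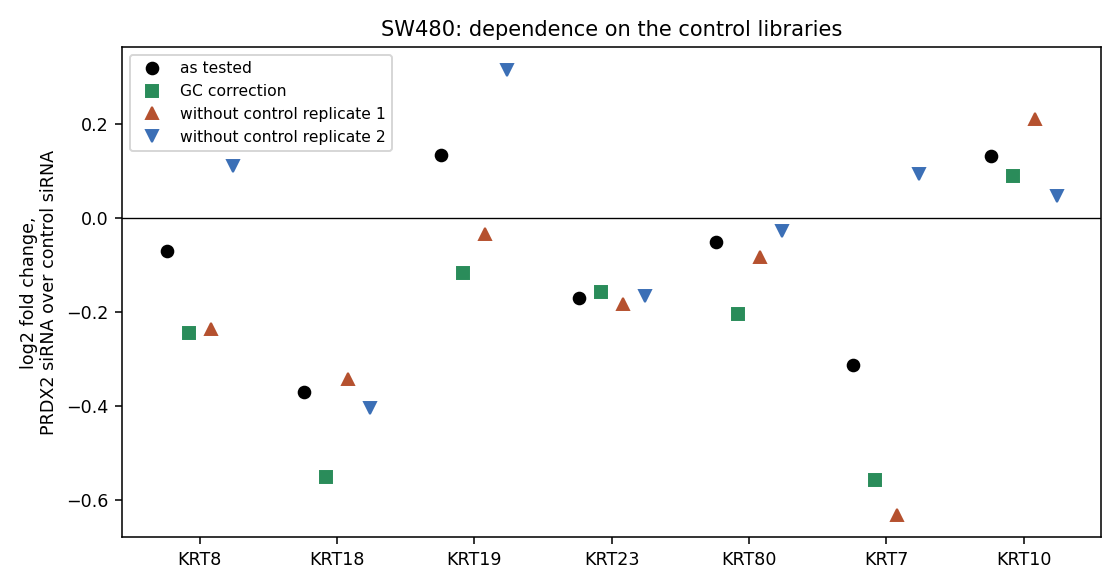
Log2 fold change, siPrdx2 over siCon, of the 7 keratins tested in SW480, as tested, with a correction for transcript GC content and without either control library. KRT8 moves from -0.24 without control replicate 1 to 0.11 without replicate 2, while KRT18 stays between -0.55 and -0.34.

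With a correction for transcript GC content, 4 keratins were called lower in SW480: KRT7 (log2 -0.56), KRT8 (-0.24), KRT18 (-0.55) and KRT80 (-0.20). The correction also raised the number of calls over all genes tested, which is given with the processing below. Without siCon replicate 1 the log2 fold change was -0.63 for KRT7, -0.24 for KRT8, -0.34 for KRT18 and -0.18 for KRT23. Without siCon replicate 2 it was -0.41 for KRT18, -0.17 for KRT23, 0.11 for KRT8 and 0.32 for KRT19. The direction of KRT8, KRT7 and KRT19 in SW480 thus depended on a single control library, and that of KRT18 did not.

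No keratin had an siRNA effect that differed between HT29 and SW480 by edgeR's test of the interaction. Over all 14772 genes tested 1.12% were called, 0.616% with the higher effect in HT29 and 0.508% with the lower. At an unadjusted p under 0.05 there were 2 keratins, KRT18 and KRT19. The share of all genes past that unadjusted threshold is not given, so this is no result about the keratins. DESeq2 and limma called 0. KRT19 had the largest difference, -0.41 (SE 0.13, adjusted p = 0.135, edgeR), a fall in HT29 set against overlapping groups in SW480. Without SW480 siCon replicate 1 the difference was -0.25 and without replicate 2 it was -0.61, both past the threshold. For KRT18 the effects were -0.26 in HT29 and -0.37 in SW480, a difference of 0.12 (SE 0.05, adjusted p = 0.260, edgeR), which was past the threshold with the GC correction (0.31), without SW480 siCon replicate 1 (0.09) and without replicate 2 (0.13). KRT8 had a difference of -0.07 (SE 0.12), which was 0.10 without SW480 siCon replicate 1 (adjusted p = 0.00196, edgeR) and -0.26 without replicate 2 (8.22e-09), past the threshold in opposite directions. KRT20 differed by 0.02 with an SE of 0.50, so its few SW480 counts could not show a difference of the size seen in HT29.

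The make-up of the keratin pool was compared as shares and ratios within each library, where scaling cancels. Summed and mean TPM still depend on the scaling. The 8 keratins summed to 16514 and 16625 TPM in HT29 siCon, 15301 and 15209 TPM in HT29 siPrdx2, 10322 and 11187 TPM in SW480 siCon and 10019 and 10054 TPM in SW480 siPrdx2. KRT8 with KRT18 made up 86.9 to 88.2% of the sum in HT29 and 79.5 to 83.4% in SW480. The share of KRT20 in HT29 was 3.38 and 3.28% with siCon and 5.03 and 4.92% with siPrdx2, without overlap.

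The KRT8 to KRT18 ratio in TPM was 0.795 and 0.810 in HT29 siCon and 0.861 and 0.879 in HT29 siPrdx2. In SW480 it was 0.578 and 0.768 with siCon and 0.811 and 0.843 with siPrdx2. In both lines the siPrdx2 libraries lay above the controls, with no test of this ratio. Mean KRT8 went from 6503 to 6175 TPM in HT29 and from 3567 to 3615 TPM in SW480. In CPM the SW480 mean of KRT8 moved the other way, from 2764 to 2634. Mean KRT18 went from 8105 to 7095 TPM in HT29 and from 5320 to 4373 TPM in SW480. Among the 8 keratins, the ratio of summed type II to type I TPM was 0.661 and 0.674 against 0.697 and 0.709 in HT29, and 0.486 and 0.610 against 0.612 and 0.633 in SW480. It leaves out KRT5, a type II keratin at 2078 to 2583 TPM in SW480 and at most 0.73 TPM in HT29, so it does not compare the whole type II pool of the lines.

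**Figure D4:**
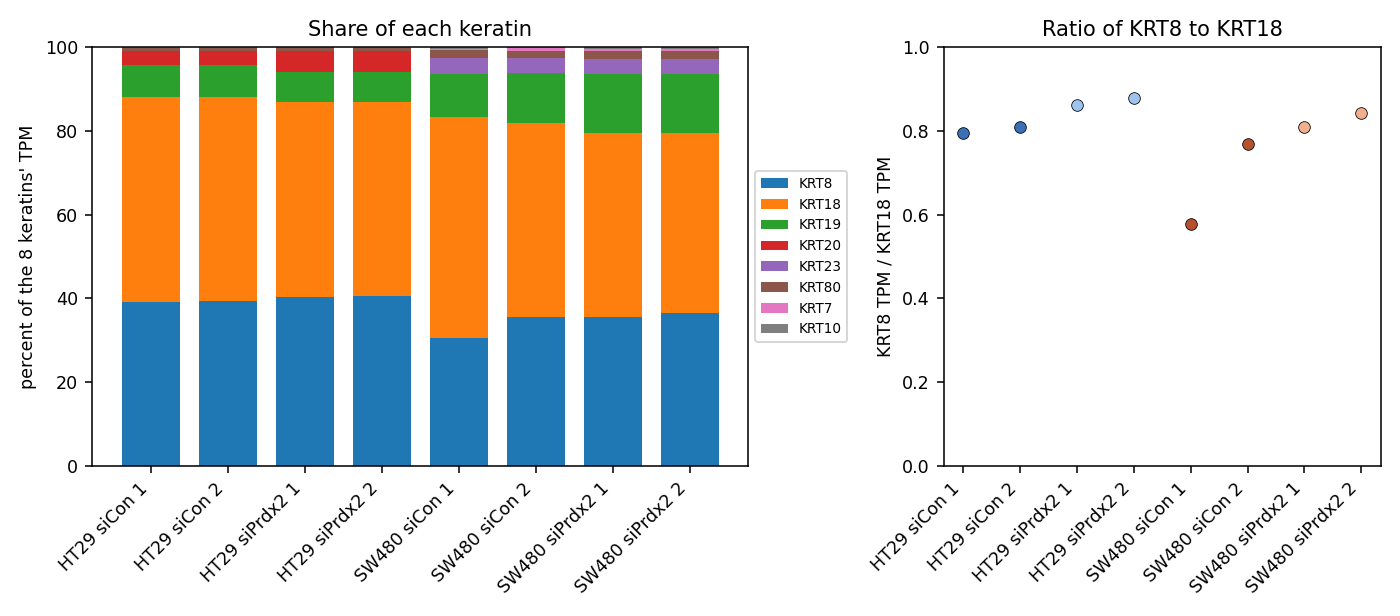
Left, share of each of the 8 keratins in their summed TPM per library, in percent (KRT10 and KRT7 are near or below 1% and hardly visible); right, KRT8 TPM divided by KRT18 TPM per library. The ratio is 0.795 to 0.879 in HT29 and 0.578 to 0.843 in SW480, lowest in SW480 siCon replicate 1.

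Of the 47 other keratin genes, 4 passed the filter in HT29 and 14 in SW480, and 2 were called lower in each line with none higher, against 9.82% of all genes tested called lower in HT29 and 2.08% in SW480. In HT29 KRT13, a keratin of stratified mucosa, fell from 14.2 and 16.6 to 9.59 and 8.58 CPM (log2 -0.76, adjusted p = 0.00111, edgeR) and KRT17, induced in wounded skin, from 25.6 and 23.8 to 17.4 and 15.9 CPM (-0.57). In SW480 the hair keratin KRT81 fell from 149 and 174 to 71.3 and 85.3 CPM (-1.04, adjusted p = 0.00881, edgeR), and its near-identical copy KRT86, with which it can share reads, was at -1.09 (adjusted p = 0.0486). The 8 keratins held 99.6 to 99.7% of all keratin TPM in HT29 and 79.2 to 81.3% in SW480. KRT5, the type II keratin of basal cells, was at 2064 to 2591 CPM in the SW480 libraries and at 0 to 0.76 CPM in HT29.

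Filament linkers, the desmosomal and plakin proteins that tie keratins to the membrane, moved both ways in HT29, with 3 of 14 tested higher and 3 lower, against 7.76% and 9.82% of all genes. Desmoplakin (DSP) rose from 227 and 220 to 316 and 306 CPM (log2 0.47, adjusted p = 5.86e-08, edgeR), EPPK1 (epiplakin, a keratin-binding plakin) fell by -0.24 and DSC2 (desmocollin) by -0.18, and PERP, a desmosomal membrane protein, rose by 0.13. In SW480, 1 of 15 was called against 3.30% of all genes, PKP2 (plakophilin), at 166 and 160 against 114 and 120 CPM (-0.48, adjusted p = 0.0460, edgeR). The effect of the siRNA differed between the lines for DSP (0.55, adjusted p = 0.0202, edgeR) and PKP2 (0.53, adjusted p = 0.0432). These calls were kept in only 8 of 16 alternatives for DSP and 7 of 16 for PKP2.

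Among other intermediate filament genes, 3 of 6 tested were called in HT29 against 17.6% of all genes, with SYNC (syncoilin) higher by 0.25 and the nuclear lamins LMNA and LMNB2 lower at -0.10 each, LMNB2 being called in 3 of 13 alternatives only. In SW480, 3 of 10 were called against 3.30% of all genes, all lower: VIM, the mesenchymal filament vimentin, at 693 and 737 against 539 and 549 CPM (log2 -0.40), NES (-0.48) and DES (-0.96), with adjusted p between 0.0446 and 0.0496 by edgeR. The SW480 calls of VIM, NES and DES were lost with limma at either pseudocount, and those of VIM and DES also without a filter. VIM was at 0.11 to 0.54 CPM in HT29.

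Gut epithelial transcription factors were called in HT29 for 5 of 15 tested, all higher, against 7.76% of all genes called higher. CDX2, an intestinal identity factor, rose from 9.54 and 9.15 to 14.5 and 13.5 CPM (log2 0.58, adjusted p = 0.00668, edgeR), and FOXA1 (0.24), ELF3 (0.23) and KLF5 (0.14) by less. With all 8 libraries in 1 fit, CDX2 (adjusted p = 0.112, edgeR), FOXA1 (0.184), ELF3 (0.156) and KLF5 (0.372) lost the call. DESeq2 gave CDX2 no adjusted p. In SW480, 1 of 14 was called against 3.30% of all genes, EHF, at 317 and 269 against 461 and 447 CPM (0.63, adjusted p = 0.0222, edgeR). With control siRNA, CDX2 was at 19.1 and 22.8 CPM in SW480, above its level in HT29, while KRT20 was at 6 counts there. Whether CDX2 bears on the level of KRT20 was not tested.

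Among keratin partners and modifiers, 3 of 12 fell in HT29 and 1 of 12 in SW480, with none higher. Of all genes 9.82% and 2.08% were called lower, so these small counts are not far from the background. TGM2, a transglutaminase that cross-links proteins, fell from 525 and 539 to 363 and 354 CPM in HT29 (log2 -0.57, adjusted p = 2.88e-10, edgeR) and from 2676 and 3065 to 1740 and 1768 CPM in SW480 (-0.71, adjusted p = 0.00467). In HT29 the chaperones HSPA8 (-0.47) and HSPB1 (-0.49), which bind filament proteins, fell as well. Of the genes of these groups named as called in HT29, KRT13, DSP, TGM2 and HSPA8 stayed called with all 8 libraries in 1 fit. KRT17, EPPK1, DSC2, PERP, SYNC, LMNA, LMNB2, CDX2, FOXA1, ELF3, KLF5 and HSPB1 did not. The 8 such genes named in SW480 (KRT81, KRT86, PKP2, VIM, NES, DES, EHF and TGM2) kept direction without any single SW480 library. KRT86, PKP2, VIM, NES and DES lost the call with limma at either pseudocount, and PKP2, VIM and DES also without a filter. With 1 siCon library left, the spread came from the siPrdx2 duplicates alone (chi-square 2.08 per degree of freedom against 10.6 for the controls). A call kept there is thus no check of these genes. Calls were kept without either siCon library and mostly lost without either siPrdx2 library. The interactions of DSP and PKP2 were likewise called without either SW480 siCon library and lost without either SW480 siPrdx2 library. They were also lost without any single HT29 library and with limma at either pseudocount. Bulk libraries cannot tell fewer cells of a kind from less RNA per cell for any of these values.

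The gene most like each keratin across the 8 libraries was found among 11805 genes with a mean of at least 5 CPM, by Pearson's r of log2 CPM. KRT20 was closest to ATP10B (r = 0.9998), KRT23 to CSF2 (0.9995), KRT8 to SREBF1 (0.9994) and KRT18 to PABPC1 (0.9988). KRT7 was closest to PTCH1 (0.9985), KRT80 to IFITM1 (0.9977), KRT10 to C9orf78 (0.9933) and KRT19 to SNRNP70 (0.9690). The libraries fall into the 2 lines, so these values largely give the gap between lines and are a description.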

How the data were processed

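Messenger RNA of 8 libraries was sequenced with the TruSeq RNA v2 kit. Per the study's methods and the labels, reads were checked with FastQC, aligned to hg19 with MapSplice and quantified on refGene with RSEM; the methods describe this for the HT29 samples, and the same was assumed for SW480. The authors deposited, per gene and library, the expected count (estimated reads, with multi-mapped reads shared out), TPM (scaled to 1 total and by length) and FPKM (per length and library total). RSEM's effective lengths were 53.0 bases shorter than the lengths, so TPM is close to proportional to counts over length.

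Expected counts were rounded and tested with edgeR 4.0.16 (glmQLFit, glmQLFTest, TMM, R 4.3.3) after removal of genes that did not reach 10 counts in 2 or more libraries of the fit, with Benjamini-Hochberg adjustment over all genes tested and a threshold of 0.05. Each cell line, the lines under control siRNA and the interaction were fitted. CPM used TMM over 8 libraries and compositions used TPM, with FPKM as an alternative. Other alternatives were RLE, no filter, all libraries in 1 fit, a replicate block, GC correction (loess, span 0.5), DESeq2 1.42.0, limma 3.58.1 on log2-transformed TPM (pseudocount 1 or 0.1), and each library left out. The same alternatives were applied to the named list genes after seeing the data. The fits were also run on simulated counts, and no outcome of that is given or used here. The limit of 3 counts covers counting error only. The members and the gene lists were chosen with earlier results of these data known. Named were all 8 keratins, PRDX2, up to 4 called genes per list by size of change, and the most alike gene of each keratin. CDX2 in SW480 was named after its values were seen.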

Additional observations from a re-analysis of the deposited data

How the results depend on the processing

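In HT29 the number of keratins called (5) stayed at 4 or 5 except with all libraries in 1 fit, where it was 2. Over all genes the count of 2279 became 871 with DESeq2 and 185 with all libraries in 1 fit, and 1574 to 2030 with a library left out. In SW480 the keratin count of 1 became 4 with the GC correction, 4 with the GC correction and replicate block, and 0 with limma at either pseudocount, and it ran from 0 to 4 with a library left out. The SW480 count over all genes (466) became 2415 with all libraries in 1 fit, 1727 with the replicate block, 2393 with the GC correction, 3131 with the GC correction and replicate block, 214 and 177 with limma at pseudocounts 1 and 0.1, and 87 to 7364 with a library left out. Between lines, the keratin count of 7 ran from 4 to 8 with a library left out. For the interaction, the keratin count of 0 became 1 with the GC correction, with or without the replicate block, and ran from 0 to 3 with a library left out. The interaction count over all genes (166) became 267 without a filter, 311 with DESeq2, 1031 and 1024 with the GC correction without and with the replicate block, 103 and 43 with limma at pseudocounts 1 and 0.1, and 6 to 5237 with a library left out. A lone library was assumed to vary like the other groups. The cause of these shifts was not tested.

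Some members changed direction. In HT29 KRT23 became 0.0011 with all libraries in 1 fit and 0.0280 and 0.0286 with limma, and ran from -0.3231 to 0.2516 with a library left out, where KRT10 ran from -0.0590 to 0.2596. In SW480 KRT19 became -0.1169 with the GC correction and -0.1171 with the GC correction and replicate block, KRT8 0.0287 with limma at either pseudocount, and KRT80 0.0390 and 0.0391 with limma. Limma's median over all genes tested, at pseudocounts 1 and 0.1, was 0.0594 and 0.0639 in HT29 and 0.0849 and 0.0929 in SW480. These limma values of KRT23, KRT8 and KRT80 all lay below it. With an SW480 library left out, KRT19 ran from -0.0334 to 0.3154, KRT8 from -0.2372 to 0.1102 and KRT7 from -0.6326 to 0.0940. Between lines KRT19 became -0.2314 in the siPrdx2 libraries and ran from -0.0555 to 0.3130 with a library left out. In the interaction KRT7 became -0.0094 with the replicate block and -0.0264 and -0.0509 with limma. With the GC correction without and with the replicate block the interaction was 0.1189 and 0.1181 for KRT8, -0.0824 and -0.0814 for KRT20, and 0.0608 and 0.0602 for KRT80. With a library left out it ran from -0.4032 to 0.3384 for KRT7, -0.2641 to 0.0983 for KRT8, -0.1872 to 0.1290 for KRT10, -0.1976 to 0.2777 for KRT20 and -0.1534 to 0.4241 for KRT23.

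Over the alternatives, direction and call were kept by 89 of 104 member values in HT29, 67 of 91 in SW480, 104 of 110 between lines and 102 of 128 for the interaction. Replicate numbers are shared between groups, but same-numbered libraries correlated at only 0.10 (HT29) and 0.12 (SW480) over 2 pairs a line, so the numbers were not taken to pair them. The replicate block left 5 keratins called in HT29 and 1 in SW480, and 49.7% of called SW480 genes were then higher. Limma on TPM moved the median log2 difference between lines from -0.04 to -0.15 (pseudocount 1) and -0.16 (pseudocount 0.1), and 42.7% of interaction calls were then higher against 54.8%. KRT8 to KRT18 ratios in SW480 siCon ran from 0.578 to 0.768 with a library left out. Depth limits KRT20 in SW480, at 6 to 10 counts.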

Other observations

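KRT8 and KRT18 have nearly equal transcript GC contents (58.3 and 57.8%) and similar levels, yet they differed in how the SW480 control duplicates stood to each other. KRT8 was at 2429 CPM in replicate 1 and 3099 CPM in replicate 2, and KRT18 at 3399 and 3265 CPM. In HT29 siCon the same values were 5444 and 5538 CPM for KRT8 and 5548 and 5539 CPM for KRT18. The difference in SW480 was not tested.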
